A study of Mus musculus with 24 samples.

Results

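Parp1, Parp9, Parp10, Parp11, Parp12, Parp14 and Dtx3l were followed in 4 tissues of mice without Trex1 after treatment with SN-011, an antagonist of STING. These 7 genes were the rows of the count files whose Ensembl identifier carries one of these symbols in GENCODE release M21, out of 54532 genes listed. All 7 were detected in all 24 samples, with 52 or more read pairs per sample, and all 7 passed the filter on low counts in each tissue. Dtx3l was included as the gene of the ubiquitin ligase that pairs with PARP9, and Parp1 as the member that is not known to respond to interferon. The other 6 are called the inducible members here, after what is known of them elsewhere.

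TREX1 is the exonuclease that clears DNA from the cytosol, and without it cGAS and STING signal and type I interferon is made. PARP enzymes move ADP-ribose from NAD+ onto proteins or nucleic acids. PARP1 builds long chains of it at DNA breaks, while most of the other enzymes add single units or, as PARP9, have little activity alone. Interferon raises transcription of several PARP genes through factors that bind the interferon-stimulated response element, and their products act on viral RNA, on RNA and protein turnover and on interferon signalling itself.

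RNA-Seq was made from poly(A)+ RNA of heart, stomach, muscle and tongue, with 3 control and 3 SN-011 samples of each tissue. All mice carried the Trex1 knockout, in the control groups too, and no wild-type tissue entered these comparisons. The labels call the controls untreated and give SN-011 as 5 mg/kg 3 times a week over 4 weeks, while the methods describe mice of 1 month injected intraperitoneally with 10 mg/kg daily for 2 weeks or with 1% Tween 80 in PBS, so the dose behind these samples is not settled by the sources. Whether the sample numbers mark the same mouse in each tissue is not given in the sources used here. The labels do not give the sex, which is read from Xist and Ddx3y below.

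Total counts were 14253416 to 18443329 per sample, with a median of 16221409. The 4 heart markers, the 5 stomach markers, the 4 skeletal muscle markers and the 4 tongue markers were each highest in the tissue of their label. Muscle SN-011 replicate 2 stood apart, with counts on 11546 genes against 19798 or more in every other sample. Xist was counted at 161 CPM or more in control replicate 1 of all 4 tissues and at most 1.18 CPM in all other samples. Ddx3y, of the Y chromosome, was at most 0.163 CPM in control replicate 1 and 55.4 CPM or more in all other samples. By these 2 genes each control group held 1 female and 2 male samples, and the SN-011 groups held male samples alone. Sex was thus not balanced between the treatments, and its part in the changes was not tested beyond leaving out control replicate 1. The summed level of the 5 stomach markers outside the stomach was 233 CPM or more in control replicates 2 and 3 of heart, muscle and tongue and 38.4 CPM or less in control replicate 1 and all SN-011 samples of these tissues. The calls of the members within a tissue are given below also without single samples, and their mean changes also without these sets of samples. Changes of other genes are given with all samples only. Trex1 was listed at 0 counts in all 24 samples, but its exons overlap those of Atrip on the same strand, so this does not check the genotype.

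The promoter sequences are shown as the start-site sequence that was searched for an interferon-stimulated response element. RefSeq promoter windows (GRCm38.p6, 250 bases before to 50 after a gene start) were found for 4 of the 7 members, namely Parp1, Parp11, Parp12 and Dtx3l, in 5 windows. The element was searched on both strands as GAAA, any 2 bases and GAAA, or as its complement TTTC, any 2 bases and TTTC. The 150 bases before the start are printed 5′ to 3′ for Parp11 (chr6:127446690-127446839, + strand), for Parp12 (chr6:39118350-39118499, − strand) and for Parp1 (chr1:180568741-180568890, + strand), with the element in capitals.
Parp11: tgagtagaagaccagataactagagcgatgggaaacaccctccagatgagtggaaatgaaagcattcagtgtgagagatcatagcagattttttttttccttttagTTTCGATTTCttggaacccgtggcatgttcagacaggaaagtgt
Parp12: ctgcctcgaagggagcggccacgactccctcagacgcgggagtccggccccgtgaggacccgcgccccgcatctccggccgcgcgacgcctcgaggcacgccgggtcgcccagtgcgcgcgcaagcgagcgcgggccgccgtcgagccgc
Parp1: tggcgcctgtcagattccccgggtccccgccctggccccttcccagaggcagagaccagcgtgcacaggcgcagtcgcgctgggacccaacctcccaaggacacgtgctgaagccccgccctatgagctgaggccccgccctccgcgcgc
Of the 5 windows, only this Parp11 window held the element, as TTTCGATTTC from position −44 before the start. It also held the STAT motif, TTC, any 3 bases and GAA, from position −37, overlapping the first. Of 32851 windows of all genes, 3.44% held the first motif and 8.30% the second. The Parp12 window held neither, nor did those of Dtx3l, Parp1 and the second start of Parp11.

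Parp9, Dtx3l and Parp14 lie side by side on chromosome 16 (GRCm38). Parp9 spans 35938470 to 35972605 on the + strand, Dtx3l 35926511 to 35939151 and Parp14 35832874 to 35871544 on the − strand. Parp9 and Dtx3l overlap head to head, with 682 bases of span and 458 exon bases in common on opposite strands, and the strand setting of the counting is not given in the sources used here. Parp10 lies at chr15:76231174-76243441 on the − strand and shares 205 exon bases with Plec on the same strand. Parp12 lies at chr6:39086410-39118349 on the − strand and Parp11 at chr6:127446840-127494261 on the + strand, while Parp1 lies at chr1:180568924-180601254 on the + strand.

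In the control samples the 6 inducible members had their lowest mean in muscle and their highest in heart or tongue, whereas Parp1 had its highest mean in muscle. Levels were set between tissues and genes as CPM per kb, that is counts scaled to the library size and divided by the length of the exons, with 1 TMM scaling over all 24 samples. Parp1 was at 16.1 ± 2.26 CPM per kb in muscle, 9.64 ± 0.953 in heart, 6.18 ± 0.487 in tongue and 4.30 ± 0.426 in stomach (SD, n = 3). Each of these 3 steps passed the test, at 0.74 ± 0.17, 0.64 ± 0.17 and 0.52 ± 0.17 on the log2 scale (SE) with adjusted p of 0.0016, 0.00599 and 0.018 (edgeR, joint fit). The step from muscle to heart depended on the scaling, since with library size alone it was −0.10 and was not called (adjusted p = 0.696).

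Parp12, a zinc-finger PARP of the Golgi and of stress granules, was at 37.0 ± 9.06 CPM per kb in tongue, 31.3 ± 2.24 in heart, 28.3 ± 3.95 in stomach and 11.8 ± 1.47 in muscle. Parp10, a mono-ADP-ribosyltransferase, was at 37.0 ± 3.92 in tongue, 29.2 ± 1.23 in heart, 15.9 ± 2.09 in stomach and 13.4 ± 1.70 in muscle. Parp9 was at 24.3 ± 2.40 in heart, 24.2 ± 5.92 in tongue, 16.5 ± 3.40 in stomach and 9.17 ± 1.29 in muscle. The test did not separate heart from tongue for these 3 genes. Nor did it for the next 3, Parp14, Dtx3l and Parp11 (edgeR, adjusted p = 0.103, 0.282 and 0.283). Parp14, which carries macrodomains that bind ADP-ribose, was at 28.8 ± 5.11 in heart, 15.5 ± 3.81 in tongue, 14.4 ± 7.21 in stomach and 10.7 ± 2.40 in muscle. Dtx3l was at 22.0 ± 2.89 in heart, 16.3 ± 6.43 in tongue, 11.0 ± 1.90 in stomach and 7.86 ± 1.15 in muscle. Parp11 had the lowest level per length of all 7 members in every tissue, at 6.04 ± 1.13 in heart, 4.49 ± 0.309 in tongue, 3.85 ± 1.64 in stomach and 2.25 ± 0.468 in muscle. Of the 21 steps between neighbouring tissues, 7 passed the test. Besides the 3 of Parp1, these were stomach above muscle for Parp9, Parp11 and Parp12 and heart above stomach for Parp10. Each of the 7 lost its call in some alternative run. All but the step of Parp1 from muscle to heart kept their sign. Between heart and muscle, heart was higher for all 6 inducible members, by 1.12 (Parp10) to 1.48 (Dtx3l) on the log2 scale, with adjusted p from 1.39e-04 to 0.00945. The share of all genes that passed the test of tissue levels was high, at 42.5% for heart and stomach, 33.7% for heart and muscle, 29.1% for heart and tongue, 51.6% for stomach and muscle, 36.9% for stomach and tongue and 38.1% for muscle and tongue.

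**Figure D1:**
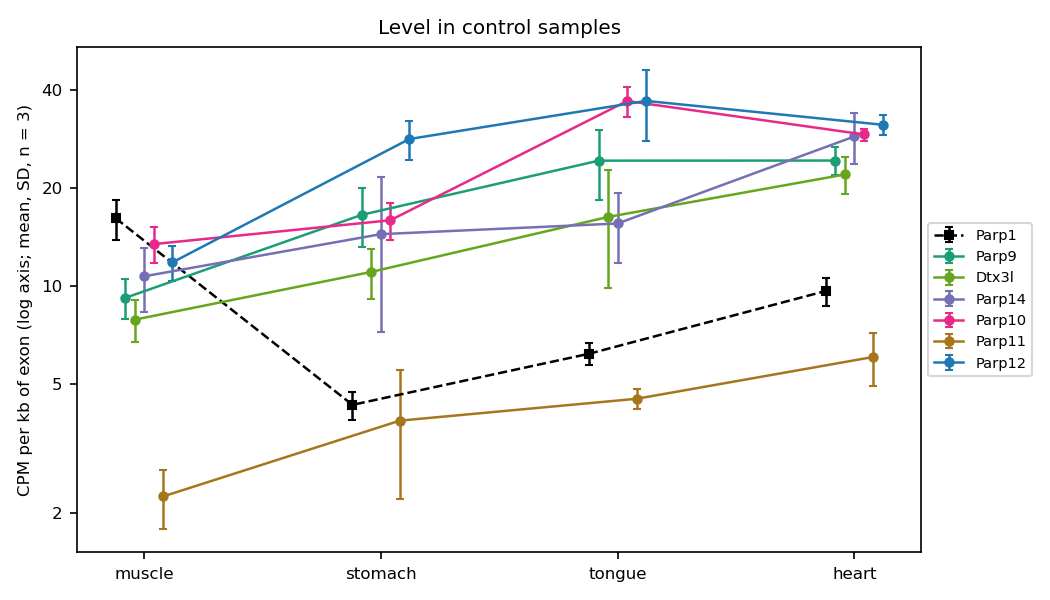
Level of the 7 members in control samples, as CPM per kb of exon on a log axis, for each tissue on the horizontal axis. Points are means of 3 samples, bars are the SD and lines join the tissues of 1 gene. Parp1 (dashed) lies at 16.1 in muscle and 4.30 in stomach, while each inducible member has its lowest mean in muscle.

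Parp1 ranked first of the 7 per kb in muscle and sixth in the other 3 tissues. Among the 6 inducible members of the control samples, Parp12 took the largest share of the summed CPM per kb in heart (22.1%) and stomach (31.5%), and Parp10 in muscle (24.6%) and tongue (28.0%). Parp11 took 3.42% to 4.25%.

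The next comparison asked how SN-011 changed each member within a tissue. In all 24 pairs of an inducible member and a tissue the mean was lower in the SN-011 samples than in the control samples. In 18 of them every SN-011 sample was below every control sample, and in 6 the groups overlapped. By tissue, 5 of 6 inducible members were without overlap in heart, 3 of 6 in stomach, 5 of 6 in muscle and 5 of 6 in tongue, against 13.1%, 15.2%, 19.8% and 8.38% of all genes tested with all SN-011 samples below all control samples. No member passed an adjusted p of 0.05 by edgeR's quasi-likelihood test in any 1 tissue, where 0.848% of all genes were called in heart, 0% in stomach, 0.0141% in muscle and 0% in tongue. At an unadjusted p under 0.05 and lower stood 6 inducible members in heart, 3 in stomach, 4 in muscle and 6 in tongue, against 11.6%, 11.4%, 5.8% and 7.33% of all genes. The exact test of edgeR called 2, 3, 2 and 1 of them lower, against 2.82%, 4.12%, 1.35% and 1.12% of all genes. DESeq2 called 5, 3, 4 and 3 lower, against 4.33%, 6.54%, 4.33% and 1.89% of the genes to which it gave an adjusted p. The median log2 fold change of the 6 was −0.53 in heart, −0.96 in stomach, −1.06 in muscle and −0.77 in tongue, and that of all genes was between −0.08 and 0.00. Values by sample are given below in replicate order, as CPM scaled by TMM within the tissue, and tissues are not compared on this scale.

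**Figure D2:**
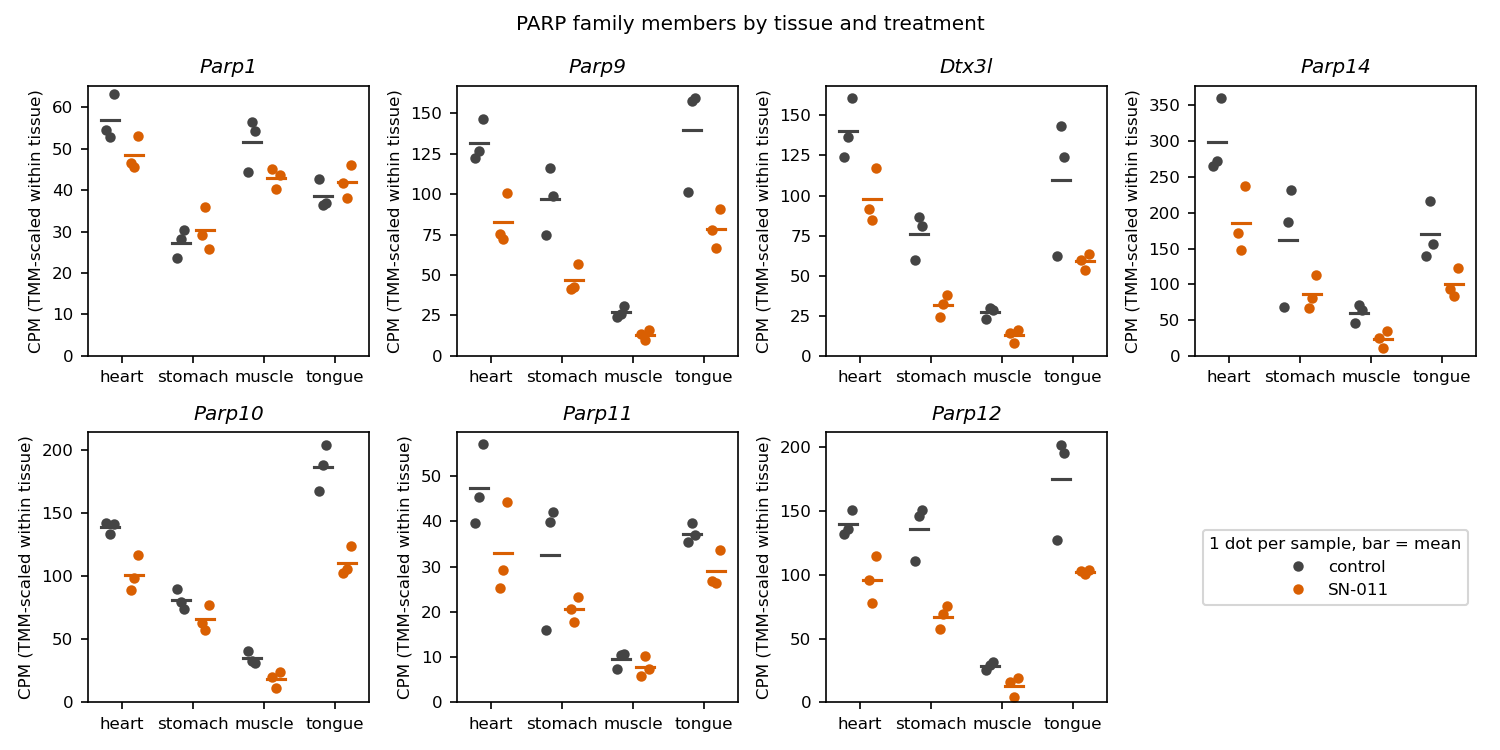
Level of each member in every sample, as CPM scaled by TMM within a tissue, for 3 control samples (grey) and 3 SN-011 samples (orange) of 4 tissues. Dots are samples, bars are means and each panel starts at 0. SN-011 dots lie below all control dots in 18 of 24 pairs of an inducible member and a tissue, and Parp1 groups overlap in all 4 tissues.

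PARP9 and DTX3L form a complex in which DTX3L is the ubiquitin ligase, and the complex is known to strengthen the response to interferon. Parp9 was counted in heart at 122, 127 and 147 CPM in the control samples and 75.3, 72.5 and 101 CPM in the SN-011 samples. In stomach Parp9 was at 75.02, 116 and 98.6 CPM in the control samples and 41.2, 42.7 and 56.6 CPM in the SN-011 samples. In both tissues every control sample was above every SN-011 sample. In muscle Parp9 was at 24.3, 26.2 and 30.7 CPM in the control samples and 13.7, 9.63 and 15.9 CPM in the SN-011 samples. In tongue Parp9 was at 102, 158 and 159 CPM in the control samples and 77.7, 66.7 and 90.5 CPM in the SN-011 samples. Here too the groups did not overlap, which makes Parp9 and Parp12 the members without overlap in all 4 tissues. The log2 fold change of Parp9 was −0.67 ± 0.15 in heart, −1.05 ± 0.26 in stomach, −1.05 ± 0.23 in muscle and −0.83 ± 0.21 in tongue (SE). Its adjusted p by edgeR's quasi-likelihood test was 0.0715 in heart, 0.0817 in stomach, 0.146 in muscle and 0.273 in tongue.

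Dtx3l in heart was at 124, 136 and 161 CPM in the control samples and 91.4, 84.8 and 117 CPM in the SN-011 samples. In stomach Dtx3l was at 59.7, 86.7 and 81.3 CPM in the control samples and 24.4, 32.5 and 37.8 CPM in the SN-011 samples. In muscle Dtx3l was at 23.2, 29.8 and 28.7 CPM in the control samples and 14.6, 8.24 and 15.9 CPM in the SN-011 samples. No SN-011 sample reached a control sample in these 3 tissues. In tongue Dtx3l was at 62.1, 144 and 124 CPM in the control samples and 59.6, 53.4 and 63.7 CPM in the SN-011 samples. There the low control sample was replicate 1, which lay within the SN-011 range, while the other two were above all SN-011 samples. As a log2 fold change, Dtx3l was at −0.52 ± 0.15 in heart, −1.27 ± 0.26 in stomach, −1.07 ± 0.28 in muscle and −0.90 ± 0.29 in tongue (SE). Adjusted p of Dtx3l by the same test was 0.113 in heart, 0.0708 in stomach, 0.197 in muscle and 0.335 in tongue.

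The counts of Parp9 and Dtx3l moved together across samples and tissues. Their ratio, Parp9 over Dtx3l read pairs, was 0.942 ± 0.0374 in heart control and 0.846 ± 0.0193 in heart SN-011 samples (SD, n = 3 each). These groups did not overlap, with an exact two-sided permutation p of 0.1, the smallest that 3 against 3 allows. The ratio was 1.27 ± 0.0658 and 1.5 ± 0.186 in stomach (exact p = 0.2), 0.998 ± 0.104 and 1.03 ± 0.12 in muscle (exact p = 0.8) and 1.34 ± 0.272 and 1.32 ± 0.0872 in tongue (exact p = 1). Reads from the 458 shared exon bases can be counted for either gene or for neither, and their part in the ratio was not tested.

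**Figure D3:**
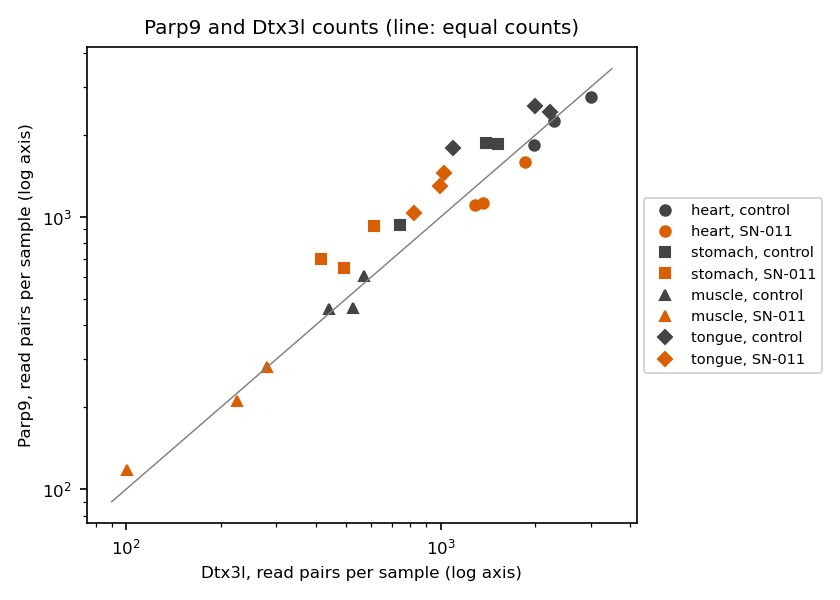
Read pairs of Parp9 against those of Dtx3l in each of 24 samples, both on log axes, with the tissue as the symbol and the treatment as the colour (grey control, orange SN-011). The line marks equal counts. Stomach and tongue samples lie above the line and heart samples below it, with SN-011 samples at the lower counts of each tissue.

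PARP14, a large PARP with macrodomains, is known from the response of macrophages and lymphocytes to cytokines. Parp14 in heart was at 265, 272 and 359.6 CPM in the control samples and 171, 148 and 237 CPM in the SN-011 samples. In muscle Parp14 was at 46.02, 70.6 and 63.9 CPM in the control samples and 25.2, 10.4 and 34.4 CPM in the SN-011 samples. In tongue Parp14 was at 139.8, 216 and 157 CPM in the control samples and 93.5, 84.04 and 123 CPM in the SN-011 samples. In these 3 tissues the groups did not overlap, and the lowest muscle sample was SN-011 replicate 2. In stomach Parp14 was at 68.4, 187 and 232 CPM in the control samples and 67.04, 80.4 and 112 CPM in the SN-011 samples. There control replicate 1 lay inside the SN-011 range. Parp14 had log2 fold changes of −0.69 ± 0.20 in heart, −0.91 ± 0.44 in stomach, −1.36 ± 0.42 in muscle and −0.77 ± 0.21 in tongue (SE). These had adjusted p of 0.107 in heart, 0.244 in stomach, 0.241 in muscle and 0.284 in tongue. Without stomach control replicate 3 the change in stomach was −0.58.

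PARP12 is recruited to stress granules and restrains several RNA viruses. Parp12 in heart was at 132, 136 and 151 CPM in the control samples and 95.9, 77.4 and 114 CPM in the SN-011 samples. In stomach Parp12 was at 110.4, 146 and 150.4 CPM in the control samples and 57.4, 68.9 and 75.4 CPM in the SN-011 samples. The control samples were all above the SN-011 samples. In muscle Parp12 was at 25.3, 29.03 and 31.3 CPM in the control samples and 15.7, 4.24 and 18.8 CPM in the SN-011 samples. In tongue Parp12 was at 127, 201 and 195 CPM in the control samples and 102, 100.3 and 104 CPM in the SN-011 samples. In muscle the value of SN-011 replicate 2 rests on 52 read pairs, the lowest count of any member. In tongue the 3 SN-011 samples were close together and below all controls. For Parp12 the log2 fold change was −0.54 ± 0.15 in heart, −1.01 ± 0.25 in stomach, −1.14 ± 0.50 in muscle and −0.77 ± 0.19 in tongue (SE). The adjusted p was 0.102 in heart, 0.0796 in stomach, 0.359 in muscle and 0.271 in tongue.

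PARP10 modifies single amino acids with ADP-ribose and binds MYC. Parp10 in heart was at 142, 134 and 141 CPM in the control samples and 89.1, 98.7 and 117 CPM in the SN-011 samples. In muscle Parp10 was at 40.7, 32.9 and 30.97 CPM in the control samples and 20.4, 11.8 and 23.98 CPM in the SN-011 samples. In tongue Parp10 was at 168, 189 and 205 CPM in the control samples and 102, 106 and 124 CPM in the SN-011 samples. The groups did not overlap in these 3 tissues. In stomach Parp10 was at 90.4, 79.4 and 74.1 CPM in the control samples and 63.4, 57.3 and 77.4 CPM in the SN-011 samples. Here SN-011 replicate 3 lay within the control range. Log2 fold changes of Parp10 were −0.46 ± 0.13 in heart, −0.30 ± 0.23 in stomach, −0.89 ± 0.28 in muscle and −0.75 ± 0.13 in tongue (SE). By the quasi-likelihood test the adjusted p was 0.099 in heart, 0.442 in stomach, 0.242 in muscle and 0.263 in tongue. Plec, which shares 205 exon bases with Parp10, reached 11865 read pairs in a sample, so pairs from that stretch are uncertain for Parp10.

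PARP11 is found at the nuclear envelope and is known to modify a ubiquitin ligase that removes the interferon receptor. Parp11 in heart was at 39.6, 45.4 and 57.1 CPM in the control samples and 25.3, 29.2 and 44.3 CPM in the SN-011 samples. In stomach Parp11 was at 15.97, 39.9 and 42.05 CPM in the control samples and 20.6, 17.8 and 23.2 CPM in the SN-011 samples. In muscle Parp11 was at 7.44, 10.6 and 10.6 CPM in the control samples and 5.84, 10.3 and 7.31 CPM in the SN-011 samples. The groups overlapped in each of these 3 tissues, in stomach with control replicate 1 the lowest of the 6 samples. In tongue Parp11 was at 35.4, 39.6 and 36.9 CPM in the control samples and 26.7, 26.4 and 33.7 CPM in the SN-011 samples. Tongue was the only tissue where its groups did not overlap. Parp11 showed log2 fold changes of −0.52 ± 0.22 in heart, −0.67 ± 0.37 in stomach, −0.29 ± 0.31 in muscle and −0.37 ± 0.15 in tongue (SE). Their adjusted p was 0.201 in heart, 0.29 in stomach, 0.724 in muscle and 0.384 in tongue. Single samples moved these values by over 1.5 times and none was then called. The change in muscle was −0.13 without SN-011 replicate 1, −0.54 without SN-011 replicate 2 and −0.45 without control replicate 1. In stomach it was −1.02 without control replicate 1 and in heart −0.81 without SN-011 replicate 3.

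Parp1 in heart was at 54.6, 52.9 and 63.2 CPM in the control samples and 46.5, 45.7 and 53.04 CPM in the SN-011 samples. In stomach Parp1 was at 23.6, 28.2 and 30.3 CPM in the control samples and 29.2, 36.01 and 25.9 CPM in the SN-011 samples. The groups overlapped in both. In muscle Parp1 was at 44.4, 56.4 and 54.3 CPM in the control samples and 45.2, 40.3 and 43.7 CPM in the SN-011 samples. In tongue Parp1 was at 42.7, 36.4 and 36.97 CPM in the control samples and 41.7, 38.1 and 46.02 CPM in the SN-011 samples. These groups overlapped as well, and the sign of the change differed among tissues. On the log2 scale Parp1 differed by −0.23 ± 0.12 in heart, 0.15 ± 0.23 in stomach, −0.26 ± 0.14 in muscle and 0.12 ± 0.14 in tongue (SE). None passed, with adjusted p of 0.279 in heart, 0.727 in stomach, 0.437 in muscle and 0.733 in tongue. In stomach the sign was lost without SN-011 replicate 2, at −0.01.

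The calls within a tissue depended on single samples. Without muscle SN-011 replicate 2, 4 inducible members were called lower in muscle, Parp9 (−0.87, adjusted p = 0.0297), Parp12 (−0.73, adjusted p = 0.0382), Parp14 (−1.01, adjusted p = 0.0471) and Dtx3l (−0.84, adjusted p = 0.031), and 6 of 6 were then without overlap. In that setting 3.8% of all genes were called lower and 26.7% were without overlap. Without tongue control replicate 1, the Xist-positive sample, 5 were called lower in tongue, Parp9 (−1.02, adjusted p = 0.00595), Parp10 (−0.83, adjusted p = 0.00778), Parp12 (−0.95, adjusted p = 0.00276), Parp14 (−0.89, adjusted p = 0.0263) and Dtx3l (−1.18, adjusted p = 0.0026), as were 8.04% of all genes. Leaving out control replicate 1 moved the members without overlap to 6 of 6 in heart, 5 of 6 in stomach, 6 of 6 in muscle and 6 of 6 in tongue. With 2 control samples left, 18.8%, 24%, 26.9% and 23.6% of all genes were then without overlap too. Leaving out any other sample of a tissue left 3 or 4 in stomach and 5 or 6 in each of the others, against 11.2% to 24.6% of all genes.

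Over the 4 tissues together, 6 of 6 inducible members were called lower in the joint fit and Parp1 was not. None of the 6 was called when the tissues were averaged per sample number, as given below. In the joint fit of 24 samples the mean log2 change was −0.97 ± 0.15 (adjusted p = 3.94e-04) for Dtx3l, −0.95 ± 0.20 (adjusted p = 0.00458) for Parp14 and −0.93 ± 0.12 (adjusted p = 1.52e-04) for Parp9 (SE). It was −0.89 ± 0.17 (adjusted p = 0.00269) for Parp12, −0.63 ± 0.11 (adjusted p = 0.00169) for Parp10 and −0.50 ± 0.14 (adjusted p = 0.0264) for Parp11. These changes leave 51.2% (Dtx3l) to 70.7% (Parp11) of the control level. Parp1 was at −0.09 ± 0.08 (adjusted p = 0.546), close to the median of all genes, −0.09. Of all genes tested, 7.67% were called lower. This test takes the 24 samples as separate. Between 2 tissues, the deviations of a sample from its group mean correlated best with those of its own number in 29 of 36 comparisons of control and 24 of 36 of SN-011 samples, and the Xist counts had the same number in all 4 tissues. If samples of 1 number came from 1 mouse, which the labels do not say, the p-values of the joint fit are too small. With samples of 1 treatment and number as a replicate block in limma, the other 5 were called and Parp11 was not (adjusted p = 0.0731). The share of all genes called lower was not taken for this block. When the 4 tissues were first averaged per sample number, leaving 3 against 3, no inducible member was called by limma. By limma the unadjusted p was 5.95e-04 to 0.0395 (all 6 under 0.05) and the adjusted p 0.0629 to 0.214. Of all genes, 13.6% were lower at an unadjusted p under 0.05 and 0.0304% were called lower. The groups of these averages overlapped for Parp11 and not for the other 5, and the share of all genes without overlap was not taken.

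The mean change was also run without the samples that stood apart. Without muscle SN-011 replicate 2 all 6 inducible members were called, with 10.1% of all genes called lower, and again without control replicate 1 of every tissue, at −0.59 (Parp10) to −1.13 (Parp14) and with 7.95% of all genes. Parp11 lost its call, with adjusted p of 0.0506 to 0.0551, when 1 of these samples was left out: tongue control 2, tongue SN-011 2, muscle control 2, muscle control 3, stomach control 2, heart control 3, heart SN-011 1 or heart SN-011 2. It also lost it with library size alone (adjusted p = 0.0606). The mean change was next run without control replicates 2 and 3 of heart, muscle and tongue, the samples with stomach markers. Each of these tissues then kept 1 control sample, which is assumed to vary like the other groups. That sample was the Xist-positive control replicate 1, so sex and treatment cannot be told apart in these tissues in this run. The mean changes were then −0.74 for Parp9, −0.65 for Parp10, −0.32 for Parp11, −0.70 for Parp12, −0.73 for Parp14 and −0.65 for Dtx3l, with adjusted p from 0.0843 to 0.691, and none was called, as 0.137% of all genes were called lower. The part of these stomach transcripts in the changes was not tested further. Conversely, the run without control replicate 1 kept only controls with stomach markers in heart, muscle and tongue. No control sample of these tissues was both male by Xist and Ddx3y and low in stomach markers. The stomach markers themselves fell in the mean over tissues, 5 of 5 called, with a median log2 change of −4.21.

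**Figure D4:**
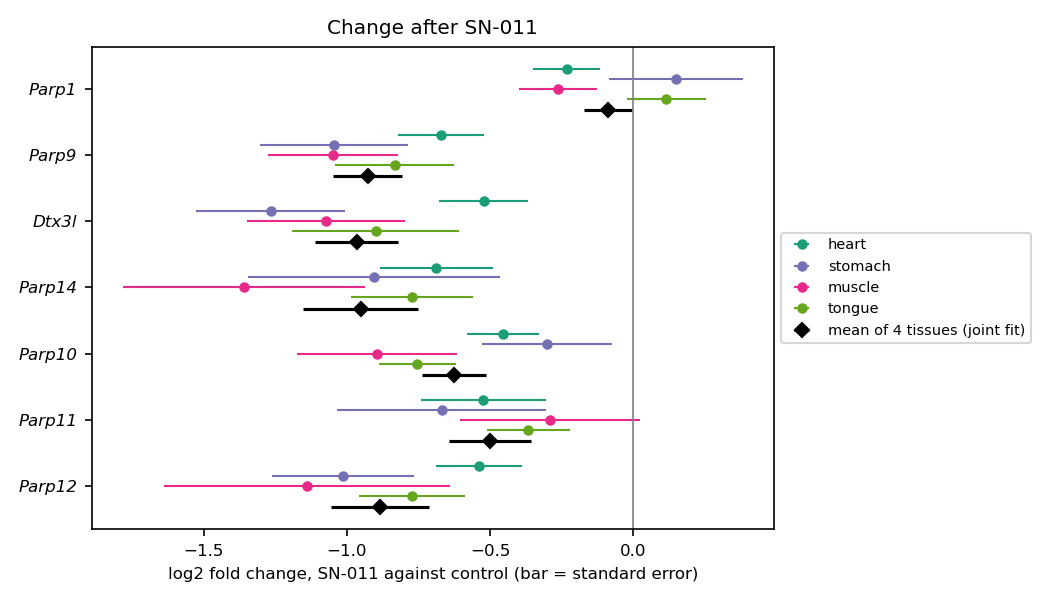
Log2 fold change of SN-011 against control for the 7 members, with the standard error as a bar. Coloured dots are the fits of single tissues and black diamonds the mean over 4 tissues in the joint fit. All dots of the 6 inducible members lie below 0, between −1.36 and −0.29, and those of Parp1 between −0.26 and 0.15.

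Differences of the change between tissues were tested for 7 members and 6 pairs of tissues. None of the 42 tests passed by edgeR's quasi-likelihood test in the joint fit, with 0 at an unadjusted p under 0.05. The lowest unadjusted p was 0.0607, for Parp1 between muscle and tongue. The largest estimated difference was that of Dtx3l between heart and stomach, 0.77 ± 0.41 on the log2 scale (adjusted p = 0.351). Of all genes, 6.95% were called for stomach against muscle, 2.01% for stomach against heart and 0.821% for stomach against tongue. The other pairs had 0.0355% (tongue against muscle), 0.00507% (muscle against heart) and 0% (tongue against heart).

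Parp1 served as a reference within each sample, since a ratio of counts in 1 sample does not depend on how libraries are scaled. The log2 ratio of each inducible member to Parp1 was lower on average after SN-011 in 24 of 24 pairs, and in 19 the groups did not overlap. By tissue these were 5 of 6 in heart, 3 of 6 in stomach, 5 of 6 in muscle and 6 of 6 in tongue, against 4.67%, 19.6%, 10.2% and 10.2% of all genes in their ratio to Parp1. The exact permutation test cannot go below p = 0.1 with 3 against 3, and adjusted over the 24 tests the lowest p was 0.126. The largest shift was that of Dtx3l in stomach, from 1.46 ± 0.14 to 0.05 ± 0.44 (SD, n = 3). Dtx3l in tongue, whose CPM groups overlapped, had ratios of 0.54, 1.98 and 1.75 in control and 0.52, 0.49 and 0.47 in SN-011 samples, so control replicate 1 stood just above the SN-011 samples. The smallest shift was that of Parp11 in muscle, from −2.44 ± 0.12 to −2.50 ± 0.49, with an exact p of 0.9. In muscle control samples only Parp14 had more read pairs than Parp1, with a log2 ratio of 0.20 ± 0.14, and after SN-011 it was −1.04 ± 0.82. In heart and stomach control samples Parp14 had the highest ratio of the 6, at 2.38 ± 0.12 and 2.40 ± 0.75. Ratios of counts carry gene length and set no order between genes per transcript.

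**Figure D5:**
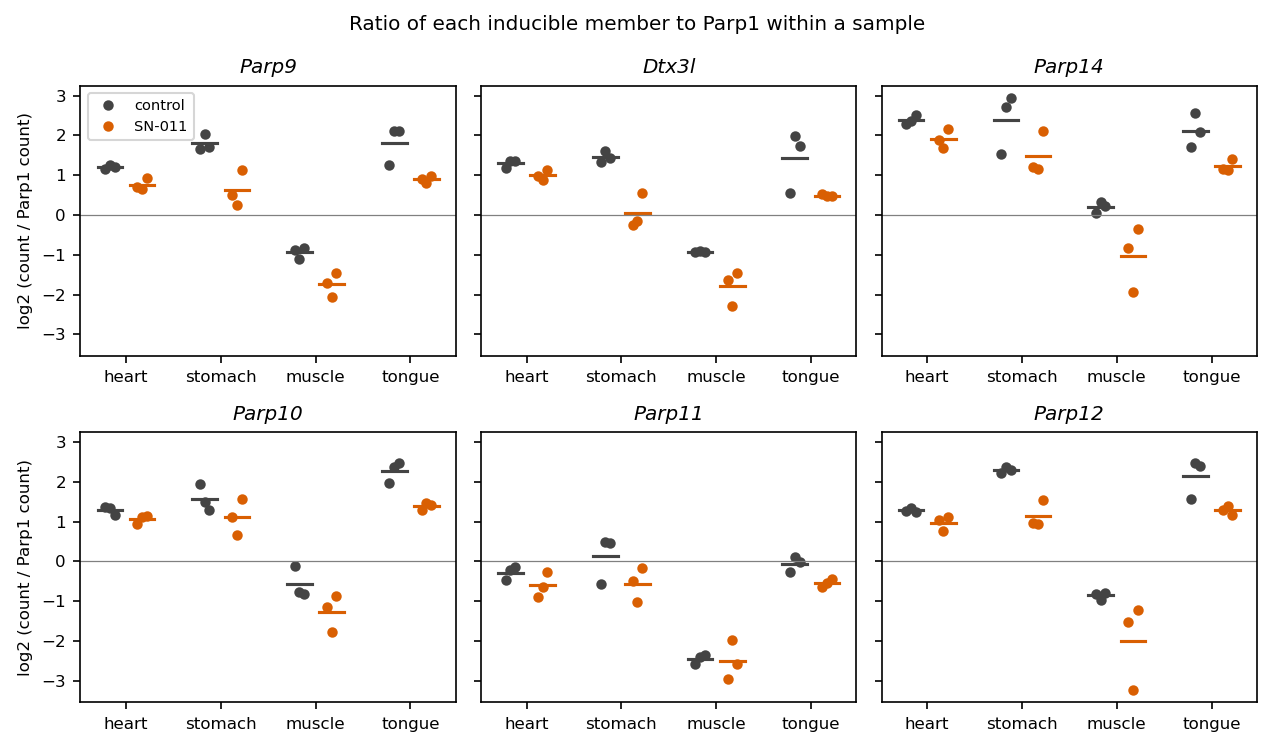
Log2 ratio of the read pairs of each inducible member to those of Parp1 in the same sample, for 4 tissues, with control samples in grey and SN-011 samples in orange. Dots are samples, bars are means and the line at 0 marks equal counts. SN-011 dots lie below all control dots in 19 of 24 pairs, and muscle lies lowest for all 6 genes.

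Other genes of the family were read from the same fits. Calls in the mean for these and the following lists rest on the joint fit, which takes the 24 samples as separate. They are not given without the samples that stood apart or as averages per sample number. Of 10 other PARP genes, 6 had a negative mean change over the tissues, as had 58.9% of all genes tested, and 2 fell, Zc3hav1 and Parp3, against 7.67% of all genes called lower. Zc3hav1, the catalytically inactive PARP that binds viral RNA, changed by −0.52 ± 0.10 (adjusted p = 0.00326). Parp3, a PARP of DNA break repair, changed by −0.52 ± 0.13 (adjusted p = 0.0137). Zc3hav1 was at 97.7 ± 15.1 CPM in heart control and 70.7 ± 7.21 CPM in heart SN-011 samples, and at 134 ± 24.4 against 83.6 ± 21.1 CPM in stomach, without overlap in either. Its groups overlapped in muscle, at 19.5 ± 2.01 against 15.4 ± 3.37 CPM, and in tongue, at 109 ± 22.6 against 80.3 ± 9.74 CPM. Tiparp, a target of the aryl hydrocarbon receptor, had no overlap in muscle alone, where it was higher after SN-011 at 26.5 ± 2.40 against 17.4 ± 3.92 CPM (SD, n = 3, adjusted p = 0.268). Parp4, the PARP of vault particles, was without overlap in all 4 tissues, in both directions. It was higher after SN-011 in heart, 55.2 ± 2.30 against 45.9 ± 2.75 CPM, and in muscle, 18.4 ± 2.64 against 12.9 ± 1.54 CPM. It was lower in stomach, 37.7 ± 3.53 against 55.0 ± 14.9 CPM, and in tongue, 24.5 ± 1.13 against 29.1 ± 2.12 CPM. None of these Parp4 changes passed the adjusted test (adjusted p 0.178 to 0.451), and its mean change was −0.04 ± 0.08.

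Of 4 other Deltex genes, relatives of Dtx3l, 2 had a negative mean change and 1 rose, Dtx3 (0.39 ± 0.10, adjusted p = 0.0131), while 4.32% of all genes were called higher. Of 6 genes whose products remove ADP-ribose, 4 had a negative mean change and 0 passed the quasi-likelihood test, with 1 lower at an unadjusted p under 0.05, where 17% of all genes stood. Of 6 partners of PARP1 in DNA repair, Xrcc1 rose (0.42 ± 0.10, adjusted p = 0.0106) and Hpf1, the cofactor that directs PARP1 to serine, fell (−0.30 ± 0.10, adjusted p = 0.0483). Between them these lists held 2 genes that rose and 1 that fell, and the median log2 change was 0.05, −0.07 and −0.01.

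Genes of interferon signalling and of the core response stood on the same side as the inducible members. Of 13, all had a negative mean change, as had 58.9% of all genes tested, and 10 fell, against 7.67% of all genes called lower. Their median was −0.86, against −0.09 for all genes tested. Cxcl10, a chemokine of T cells, changed by −1.86 ± 0.34 (adjusted p = 0.00193), and Mx1, an antiviral GTPase, by −1.58 ± 0.33 (adjusted p = 0.00472). Rsad2, which encodes viperin, changed by −1.11 ± 0.10 (adjusted p = 5.03e-06). Stat2, a transcription factor of the type I interferon response, fell by 0.55 ± 0.15 on the log2 scale (adjusted p = 0.0217). Irf9, its partner on the response element, did not pass the test (−0.32 ± 0.16, adjusted p = 0.197). In single tissues the only call of this list was Cxcl10 in heart (−1.49 ± 0.24, adjusted p = 0.0332). All 13 were negative in heart, stomach and tongue, and 12 in muscle. In muscle 1 gene was higher at an unadjusted p under 0.05 by the quasi-likelihood test.

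Markers of immune cells moved in part with the members. In whole tissue, fewer cells of a type and less RNA per cell cannot be told apart. Ptprc, the marker of all leukocytes, fell in the mean over tissues (−0.82 ± 0.26, adjusted p = 0.045). It ranged from 104 to 229 CPM in heart control and from 89.8 to 109 CPM in heart SN-011 samples, and from 27.4 to 137 against 18.1 to 55.6 CPM in stomach. It ranged from 13.5 to 20.1 against 2.45 to 12.8 CPM in muscle and from 36.8 to 54.6 against 25.7 to 40.5 CPM in tongue. Of 5 T cell markers, 5 had a negative mean change and 0 passed the quasi-likelihood test, with 2 lower at an unadjusted p under 0.05, against 58.9% and 17% of all genes. Their summed level was 103 to 188 CPM in heart control and 87.3 to 130.5 CPM in heart SN-011 samples, 47.1 to 59.6 against 16.7 to 57.0 CPM in stomach, 15.1 to 22.9 against 10.9 to 13.6 CPM in muscle and 53.9 to 88.9 against 43.0 to 68.3 CPM in tongue. Of 5 macrophage markers 2 had a negative mean change, of 3 B cell markers 3 and of 2 tested neutrophil markers 2, and 0 of them passed the test (2 B cell markers at an unadjusted p under 0.05). The part of leukocyte content in the changes of the members was not tested.

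The likeness of the members was described by Pearson's r of log2 CPM as deviations from tissue means, over 24 samples and 11431 genes. These points share libraries and treatment groups, so r holds the treatment difference too. Parp9 and Dtx3l were the closest to each other of all genes, with r = 0.97, and remained so as deviations from the means of the 8 groups, with r = 0.93. Parp9 and Dtx3l share exon bases, and the part of these in r was not tested. Without muscle SN-011 replicate 2 their r was 0.97, and both then came closer to Parp12 (r = 0.98 each). After Dtx3l, the genes most like Parp9 were Rnf213 (r = 0.97) and Gm12250 (r = 0.96). Ddx60, Mx1 and Tdrd7 were nearest to Parp12 (r = 0.97, 0.96 and 0.96), and Rnf213, Stat2 and Trim30a to Parp14 (r = 0.96, 0.95 and 0.95). Ifih1 (r = 0.96) and Rnf213 (r = 0.95) followed Parp9 for Dtx3l. Hrh2, Arrdc4 and Parp12 were nearest to Parp10 (r = 0.93, 0.90 and 0.89), and Trim30d, Adam17 and Btaf1 to Parp11 (r = 0.90, 0.85 and 0.85). Trp53, Pds5b and Zfp367 were nearest to Parp1 (r = 0.79, 0.78 and 0.78). Among the 15 pairs of inducible members r ran from 0.36 (Parp10 and Parp11) to 0.97 with a median of 0.86, and with Parp1 it ran from 0.34 to 0.59. As deviations from the means of the 8 groups, r of these pairs ran from −0.20 (Parp10 and Parp11) to 0.93. Its median was then 0.66, and with Parp1 it ran from 0.15 to 0.60. All 7 lists of 3 changed in part or in whole when groups were centred, and all 7 again when muscle SN-011 replicate 2 was left out. Parp9 and Dtx3l stayed in each other's list in both settings.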

How the data were processed

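RNA-Seq of 24 samples was analysed, 3 control and 3 SN-011 samples from each of 4 tissues of Trex1-/- mice. The authors deposited raw, unnormalized counts, 1 value per gene and sample. The study's methods name Trimmomatic, hisat2 and featureCounts with uniquely mapped pairs, while the submitters' processing notes name HISAT2, HTSeq and mm10. A strand setting of the counting is not given in the sources used here. Genes were named by GENCODE M21 (GRCm38), which held 54495 of the 54532 identifiers, and exon lengths came from it. The members and gene lists were chosen with earlier results of these data known.

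The 6 samples of a tissue were fitted together, with TMM scaling in edgeR 4.0.16 (R 4.3.3), filterByExpr (minimum count 10, minimum total 15), a prior count of 0.125, the quasi-likelihood test and Benjamini-Hochberg adjustment (threshold 0.05). A joint fit of 24 samples gave the mean change over tissues, differences between tissues and control levels. Single values were compared by exact two-sided permutation over 20 relabellings, and ratios used a pseudocount of 0.5. The paper gives n = 3 per group for these tissues, but no source says which samples came from 1 mouse. The p-values measure the spread between these samples. The floor of 3 counts was 0.163 to 0.21 CPM, and it covers counting error only. Alternatives were DESeq2 1.42.0, edgeR's exact test, other scalings, no filter, a replicate block, averages per sample number in limma 3.58.1 and leaving out samples. The scripts were tested on simulated data. The text names all 7 members, called genes of each list with the largest changes first, Zc3hav1, Tiparp and Parp4, and the 3 genes most like each member among those with a mean of at least 5 CPM. Stat2, Irf9 and Ptprc in the text were chosen with their values known. A gene of the interferon list counts in its totals but is not reported here.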

Additional observations from a re-analysis of the deposited data

How the results depend on the processing

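With 3 samples a group the number of genes called in a tissue followed the method, and the direction of the inducible members did not: their log2 fold changes within tissues and over tissues kept their sign under every alternative run. Within a tissue the replicate block was the sample number as a term beside treatment in edgeR, unlike the limma block over tissues. It pairs control with SN-011 samples of 1 number. Genes called in heart were 137, and 249 with library size alone, 1888 with no filter, 918 by edgeR's exact test, 1361 by DESeq2, 242 with a replicate block and 1 in the joint fit. In stomach they were 0, and 1368 with no filter, 1835 by the exact test, 2389 by DESeq2, 181 with the replicate block and 2738 in the joint fit. In muscle they were 2, and 1 with DESeq2 size factors, 1 with library size alone, 110 with no filter, 479 by the exact test, 880 by DESeq2, 0 with the replicate block and 474 in the joint fit. In tongue they were 0, and 18 with no filter, 253 by the exact test, 418 by DESeq2 and 4 in the joint fit. Leaving out a replicate gave 1 to 787 genes in heart, 0 to 64 in stomach, 0 to 1103 in muscle and 0 to 2135 in tongue. The cause was not tested.

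Inducible members called lower were 0 in each tissue. In heart they were 2 by the exact test and 5 by DESeq2. They were 6 with no filter and 2 with the replicate block, where 1888 and 242 genes were called in either direction. In stomach they were 3 by the exact test and 3 by DESeq2. They were 2 with no filter and 3 in the joint fit, where 1368 and 2738 genes were called in either direction. In muscle they were 2, 4 and 3 by the exact test, DESeq2 and the joint fit, and in tongue 1 and 3 by the exact test and DESeq2. The joint fit called 474 genes in muscle in either direction. The share of all genes called lower was not taken for no filter, the replicate block or the joint fit by tissue. The 2 calls in heart with the replicate block rest on pairing control with SN-011 samples by number. The check of the numbers below did not take up that pairing. Leaving out a replicate gave 0 to 4 in muscle and 0 to 5 in tongue.

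For the mean over tissues, 2367 genes were called, and 11 when the tissues were averaged per sample number, with 0 of 6 inducible members. Without control replicates 2 and 3 of heart, muscle and tongue 60 genes and 0 inducible members were called, and then 0 genes differed between tissues and 7633 differed in level, against 1500 and 14656. Leaving out a replicate, chosen as an alternative after seeing the data for the joint fit, gave 440 to 2702 genes that differed between tissues.

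The order of levels reversed where neighbours had not been told apart, and for Parp1 in muscle and heart with library size alone (−0.10). For Parp9 in heart against tongue it was −0.021 with no filter and −0.15 without control replicate 1 of every tissue, and −0.19 to 0.11 with a replicate left out. Without control replicate 1 of every tissue it was −0.045 for Parp11 and −0.11 for Parp14, tongue against stomach, and with a replicate left out −0.087 to 0.42 and −0.24 to 0.43. Without control replicates 2 and 3 it was −0.14 for Parp12, tongue against heart, and −0.19 for Parp14 and −0.27 for Dtx3l, tongue against stomach. Parp1 in stomach changed by −0.010 to 0.25 and the ratio of Parp11 to Parp1 in muscle by −0.32 to 0.17 with a replicate left out. The called steps between neighbouring tissues, apart from Parp1 in muscle and heart, kept their order. Each of them still lost its call in some alternative run.

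The sample numbers were checked as pairs. The correlation of deviations between control and SN-011 samples of the same number was −0.33 to 0.24 over 12 pairs, above 0.1 in 2, and 6 of 24 samples correlated best with their own number, so numbers were not taken to pair control with SN-011 samples. Between tissues it was above 0.1 in 13 of 18 control pairs, with all 3 pairs of heart and muscle and of muscle and tongue among them, and in 4 of 18 SN-011 pairs. The number of the best match was the sample's own in 29 of 36 control and 24 of 36 SN-011 comparisons. Whether tissues of 1 number came from 1 mouse is not given in the sources used here. With samples of 1 treatment and number as the replicate block in limma, 5 of the 6 inducible members stayed called in the mean. Parp11 was not (adjusted p = 0.0731), and no share of all genes was taken for that setting.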
